A study of Mus musculus with 20 samples.

Results

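The subject is 38 mouse genes of macrophages and inflammation in the wall of the left ventricle. They are listed by symbol, and each was found as 1 line in the count tables, among 24059 genes in all. Of the 38, 19 were grouped as macrophage genes: 8 genes of macrophage identity and phagocytic receptors, 3 of macrophage lysosomes, the 3 chains of complement C1q and 5 linked to resident macrophages. The others are 4 genes of monocytes and neutrophils, 3 cytokines, 7 chemokines, 2 adhesion molecules, and 3 genes of cytokine receptors and the NF-kB inhibitor. Some of the 19 macrophage genes are carried by other cells too, such as Ptprc by all leukocytes and Lyve1 by lymphatic endothelium.

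RNA of the left ventricular free wall came from male C57BL/6 mice aged about 9 to 13 weeks, with 5 libraries in each of 4 groups. CardioGRKO mice at ZT12 and GRflox mice at ZT12 were taken at lights off, and CardioGRKO mice at ZT0 and GRflox mice at ZT0 at lights on. All mice carry floxed alleles of Nr3c1, the gene of the glucocorticoid receptor. CardioGRKO mice also carry a Cre recombinase driven in cardiomyocytes by the promoter of alpha myosin heavy chain, whereas their GRflox littermates have no Cre, so that loss of the receptor and presence of Cre cannot be told apart. The series title names cardiac transcriptional rhythms as the question.

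Macrophages live between the cardiomyocytes of the healthy heart and take up debris through scavenger and Fc receptors. Many of them are long-lived resident cells that carry CD163, LYVE1 and the mannose receptor, while cells that arrive from blood monocytes carry CCR2. Neutrophils, cytokines such as IL-1β, TNF and IL-6, and chemokines are features of acute inflammation. Glucocorticoids dampen inflammation in many cell types through their receptor.

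The libraries held 5854462 to 37648421 counted reads (median 23223656). CardioGRKO replicate 1 at ZT0 had the fewest. Its deposited header also carries the number 0475 where those of the other libraries carry 0476, and what this number marks is not given. Nr3c1 was lower in CardioGRKO by a log2 fold change of -1.08 ± 0.06 at ZT12 and -1.06 ± 0.06 at ZT0 (± SE), with no overlap between libraries. Markers of cardiomyocytes were abundant in every library, at a summed 109400 to 135300 CPM (counts per library scaled to a common size). Replicate 3 of GRflox at ZT0 was the highest of its group in 17 of the 19 macrophage genes, and replicate 2 of CardioGRKO at ZT12 the lowest of its group in 14 of the 19. The labels do not tie replicates to named animals, so p-values measure only the spread between these libraries, which may be technical.

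The promoters of 3 genes are shown because their differences, described below, held in all alternatives tried for at least 1 kind of comparison: Lcn2 between genotypes, and Cd163 and Cx3cr1 between times of day. Each runs from 250 bases before to 50 bases after the annotated start on the gene's own strand (RefSeq, GRCm38.p6), and capitals mark matches to the motifs named after the sequences.
Lcn2 promoter, chr2:32387690-32387989, minus strand: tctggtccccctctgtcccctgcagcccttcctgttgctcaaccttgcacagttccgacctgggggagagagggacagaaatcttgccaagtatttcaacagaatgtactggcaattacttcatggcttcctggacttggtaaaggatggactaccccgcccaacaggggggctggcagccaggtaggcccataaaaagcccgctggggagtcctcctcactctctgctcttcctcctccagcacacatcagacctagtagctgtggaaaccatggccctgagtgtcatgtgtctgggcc
Cd163 promoter, chr6:124304401-124304700, plus strand: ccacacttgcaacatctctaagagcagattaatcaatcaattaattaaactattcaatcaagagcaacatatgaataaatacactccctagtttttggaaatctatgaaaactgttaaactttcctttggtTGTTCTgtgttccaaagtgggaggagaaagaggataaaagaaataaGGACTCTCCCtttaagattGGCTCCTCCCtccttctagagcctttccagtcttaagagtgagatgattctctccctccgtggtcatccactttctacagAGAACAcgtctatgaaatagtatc
Cx3cr1 promoter, chr9:120068247-120068546, minus strand: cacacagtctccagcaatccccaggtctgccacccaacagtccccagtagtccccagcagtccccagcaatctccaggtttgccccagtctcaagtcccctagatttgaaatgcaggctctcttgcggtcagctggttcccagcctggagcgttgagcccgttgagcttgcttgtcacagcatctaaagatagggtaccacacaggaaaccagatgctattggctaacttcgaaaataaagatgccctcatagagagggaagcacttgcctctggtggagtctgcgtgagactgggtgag

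Motifs were searched on both strands of these windows: the glucocorticoid core AGAACA, the NF-kB motif (GGGA and CC with any 4 bases between them), the clock E-box CACGTG, the D-box TTATGNAA and the ROR core AGGTCA. The Cd163 window held the glucocorticoid core at 119 bases upstream and at 27 bases downstream of the start, and the NF-kB motif at 73 and 54 bases upstream. These distances count from the start used for the window, which lies downstream of the first base of the Cd163 gene position, 124304636. No match to these letters was found in the Lcn2 or the Cx3cr1 window. Of all 32851 promoters in the table, 19.0% hold the glucocorticoid core, 20.7% the NF-kB motif, 16.3% the ROR core, 7.2% the E-box and 3.4% the D-box. Of the 30 listed genes with a promoter in the table, 6 hold the glucocorticoid core, 12 the NF-kB motif, 3 the ROR core, 1 the E-box (Il6ra) and 1 the D-box (Il1r1). These matches are descriptions of the letters and not binding sites.

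The levels of the 38 genes spanned a wide range. Per kilobase of exon, and averaged over all 20 libraries, the highest levels were those of C1qa at 77.3 CPM per kb, Lyz2 at 76.9 CPM per kb and C1qb at 53.9 CPM per kb. C1qa, C1qb and C1qc encode the chains of the complement recognition protein C1q, lie side by side on chromosome 4 on the same strand, and Lyz2 encodes the lysozyme of macrophages. Cxcl12, a chemokine made by stromal and endothelial cells, followed at 31.7 CPM per kb. Csf1r, the receptor for the macrophage growth factor CSF1, stood at 7.76 CPM per kb, Mrc1 at 4.53 CPM per kb and Cd163 at 4.47 CPM per kb. The monocyte receptor gene Ccr2 had 0.291 CPM per kb, Tnf 0.256 CPM per kb, Il1b 0.204 CPM per kb and Il6 0.013 CPM per kb. The spread between libraries of a group was widest for the scarce genes. The median coefficient of variation was 9.0% for Csf1r and 14.6% for C1qa, against 73.1% for Il1b and 180.3% for Il6.

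Il6, Il1b, Tnf, S100a8 and S100a9 had few reads, at 11, 184, 181, 113 and 104 in all 20 libraries together, though Il1b and Tnf had at least 1 read in each library. Il6 was at 0 in 12 of 20, where a count of 0 allows a level of up to 0.0852 to 0.269 CPM (3 counts, counting error only). By library it had 0, 1, 0, 0 and 0 reads in CardioGRKO at ZT12, 0, 0, 0, 2 and 2 in GRflox at ZT12, 1, 2, 1, 1 and 0 in CardioGRKO at ZT0, and 0, 0, 1, 0 and 0 in GRflox at ZT0. Il1b had 2, 1, 12, 4 and 5 reads in CardioGRKO at ZT12, 5, 2, 28, 17 and 3 in GRflox at ZT12, 2, 24, 4, 20 and 4 in CardioGRKO at ZT0, and 5, 4, 21, 10 and 11 in GRflox at ZT0. The groups overlapped in both genes.

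Tnf had 9, 5, 20, 13 and 9 reads in CardioGRKO at ZT12, 6, 3, 12, 3 and 3 in GRflox at ZT12, 6, 11, 11, 14 and 4 in CardioGRKO at ZT0, and 15, 10, 12, 8 and 7 in GRflox at ZT0. S100a8 and S100a9, neighbours on chromosome 3, encode the calprotectin subunits of neutrophils and monocytes. S100a8 had 0, 1, 18, 3 and 0 reads in CardioGRKO at ZT12, 3, 5, 7, 13 and 1 in GRflox at ZT12, 0, 18, 5, 4 and 2 in CardioGRKO at ZT0, and 1, 3, 15, 2 and 12 in GRflox at ZT0. S100a9 had 0, 2, 11, 3 and 1 reads in CardioGRKO at ZT12, 5, 2, 5, 8 and 1 in GRflox at ZT12, 3, 26, 2, 4 and 5 in CardioGRKO at ZT0, and 1, 1, 16, 4 and 4 in GRflox at ZT0. Single libraries weighed heavily: replicate 3 of CardioGRKO at ZT12 held 18 of the 22 S100a8 reads of its group, and replicate 3 of GRflox at ZT0 held 16 of the 26 S100a9 reads. Il6, S100a8 and Cxcl2, a neutrophil chemokine with 49 reads in all, did not pass the filter on low counts, so that 35 of the 38 genes were tested. Without the filter none of the 3 passed the test in any comparison, their adjusted p-values running from 0.366 for Il6 between genotypes at ZT0 upward.

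**Figure D1:**
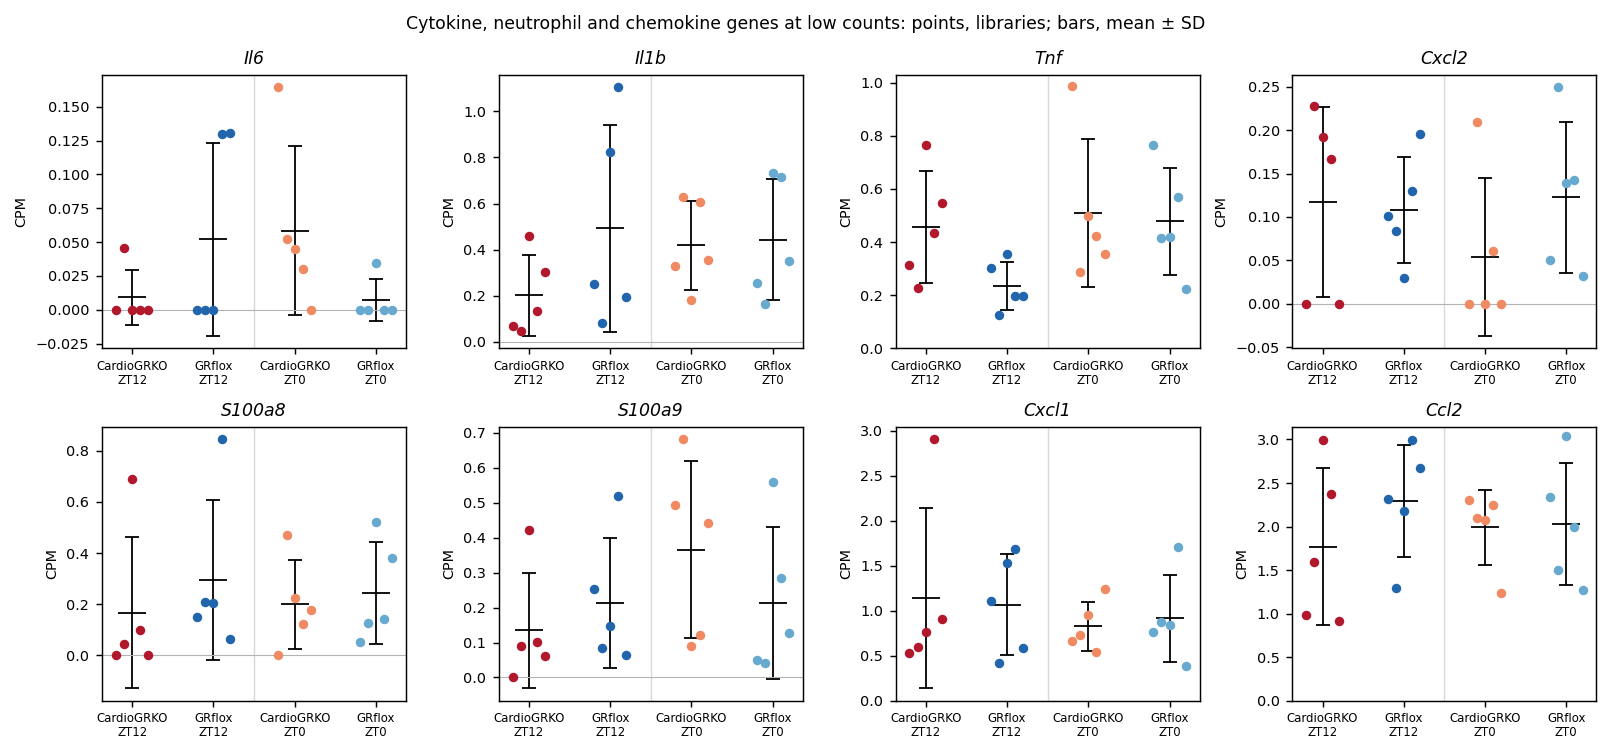
CPM of 8 cytokine, neutrophil and chemokine genes in each library (points), with the mean ± SD of 5 libraries per group (bars); columns are CardioGRKO and GRflox at ZT12, then CardioGRKO and GRflox at ZT0. Il6 was at 0 in 12 of 20 libraries and single libraries carry the mean in several groups, such as the 2.91 CPM of Cxcl1 in replicate 4 of CardioGRKO at ZT12.

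The first question was whether the macrophage and inflammatory genes differed between CardioGRKO and GRflox ventricles. At ZT12, 1 of the 35 genes tested passed edgeR's quasi-likelihood test (Benjamini-Hochberg adjusted p under 0.05 over all genes), against 21.1% of all 14007 genes, and at ZT0 1 of 35, against 14.7% of all genes. Over all genes, 10.4% were higher and 10.7% lower in CardioGRKO at ZT12, and 7.36% higher and 7.35% lower at ZT0. Among genes with a mean level between the quartiles of the 35, 3.497 and 27.6 CPM, 16.9% passed at ZT12 and 11.3% at ZT0. The gene was the same at both times: Lcn2, which encodes lipocalin 2, a secreted protein of neutrophil granules and other cells that binds bacterial iron carriers, was lower in CardioGRKO. The median log2 fold change of the 35 genes was -0.060 at ZT12, against 0.004 for all genes tested, and -0.033 at ZT0, against -0.006 for all.

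Lcn2 (chr2:32384637-32387739, minus strand, GRCm38) had 1.01, 0.774, 1.07, 1.30 and 1.03 CPM in CardioGRKO at ZT12, and 2.06, 3.06, 8.33, 7.35 and 3.40 CPM in GRflox at that time. At ZT0 it had 1.15, 0.734, 0.813, 0.758 and 1.06 CPM in CardioGRKO, against 2.701, 2.21, 2.58, 1.64 and 1.78 CPM in GRflox. Every CardioGRKO library lay below every GRflox library at the same time. The reads per library were few, at 17 to 39 in CardioGRKO and 41 to 283 in GRflox at ZT12. At ZT0 they were 7 to 28 in CardioGRKO and 23 to 74 in GRflox. Lcn2 was the 1 gene of the 35 without overlap between the genotypes at either time, against 13.8% of all genes tested at ZT12 and 11.9% at ZT0. In GRflox at ZT12, replicates 3 and 4 stood well above the other 3. The means were 1.04 ± 0.19 CPM in CardioGRKO and 4.84 ± 2.80 CPM in GRflox at ZT12, and 0.904 ± 0.191 CPM in CardioGRKO and 2.18 ± 0.469 CPM in GRflox at ZT0 (SD, n = 5 each). The log2 fold change was -2.22 ± 0.30 at ZT12, a 4.65-fold lower level (edgeR adjusted p = 7.04e-06), and -1.39 ± 0.345 at ZT0, a 2.63-fold lower level (edgeR adjusted p = 0.0074).

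The genes known to share a cell source with Lcn2 gave these values. In the neutrophil marker list, 0 of the 2 genes tested passed in either genotype comparison. The summed level of its 9 measured genes was 1.87 to 3.91 CPM in CardioGRKO and 1.70 to 5.01 CPM in GRflox at ZT12, and 2.04 to 4.77 CPM in CardioGRKO and 2.62 to 3.80 CPM in GRflox at ZT0. Adipocyte markers, a list of 6 genes chosen after values had been seen, summed to 1.27 to 2.67 CPM in CardioGRKO and 0.653 to 7.85 CPM in GRflox at ZT12. At ZT0 they summed to 0.813 to 1.76 CPM in CardioGRKO and 1.33 to 3.63 CPM in GRflox. Of the 3 adipocyte genes tested, 1 was called lower in CardioGRKO at ZT12, Cfd (-1.42 ± 0.455, edgeR adjusted p = 0.0273), and 0 at ZT0. The part of these cells in the Lcn2 result was not tested.

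None of the 19 macrophage genes passed edgeR's test between genotypes at either time, and DESeq2 called none of them. At an unadjusted p under 0.05 there was 1 at ZT12, Mrc1 (edgeR, unadjusted p = 0.0481), and 0 at ZT0. Their log2 fold changes ran from -0.193 (Fcgr1) to 0.186 (Cd163) at ZT12 and from -0.104 (Cd163) to 0.231 (Fcgr1) at ZT0. All 19 intervals (95%) lay within a 2-fold change at both times, from 0.626-fold to 1.40-fold at ZT12 and from 0.729-fold to 1.59-fold at ZT0. In bulk tissue, fewer cells of a type and less RNA per cell cannot be told apart. Csf1r had 48.7, 40.5, 43.9, 45.0 and 49.8 CPM in CardioGRKO at ZT12, and GRflox libraries had 41.0, 49.3, 38.2, 41.9 and 44.2 CPM. At ZT0 it had 46.6, 48.1, 49.1, 47.7 and 41.1 CPM in CardioGRKO, against 36.8, 41.4, 50.1, 45.9 and 46.4 CPM in GRflox. The genotypes overlapped at both times, with log2 fold changes of 0.09 ± 0.08 at ZT12 and 0.08 ± 0.08 at ZT0 (edgeR adjusted p = 0.48 and 0.565). The antisense gene Hmgxb3 overlaps Csf1r by 873 exon bases, and the strand setting of the counting is not known here.

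The remaining macrophage genes gave similar values. The leukocyte phosphatase gene Ptprc averaged 6.12 ± 0.91 CPM in CardioGRKO and 6.22 ± 0.61 CPM in GRflox at ZT12. The adaptor genes Tyrobp and Fcer1g, which carry the signal of activating receptors, had log2 fold changes of 0.15 ± 0.16 and -0.02 ± 0.11 at ZT12, and the lysosomal membrane gene Laptm5 0.03 ± 0.10. Of the Fc receptor genes, Fcgr3 averaged 12.7 ± 1.59 CPM in CardioGRKO and 13.7 ± 2.03 CPM in GRflox at ZT12. Cd14, a co-receptor for bacterial lipopolysaccharide, averaged 4.29 ± 0.30 CPM in CardioGRKO and 4.496 ± 0.40 CPM in GRflox at ZT12. The Fc receptor genes, and Lyz2 with its copy Lyz1, share sequence with close relatives, so their counts are less certain. C1qa averaged 86.0 ± 13.4 CPM in CardioGRKO and 84.0 ± 7.84 CPM in GRflox at ZT12, and 76.3 ± 10.4 CPM in CardioGRKO and 75.1 ± 13.5 CPM in GRflox at ZT0. Lyz2 averaged 109.4 ± 19.8 CPM in CardioGRKO and 101.7 ± 13.5 CPM in GRflox at ZT12, and the cathepsin gene Ctss 16.5 ± 3.19 CPM in CardioGRKO and 17.4 ± 1.496 CPM in GRflox.

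**Figure D2:**
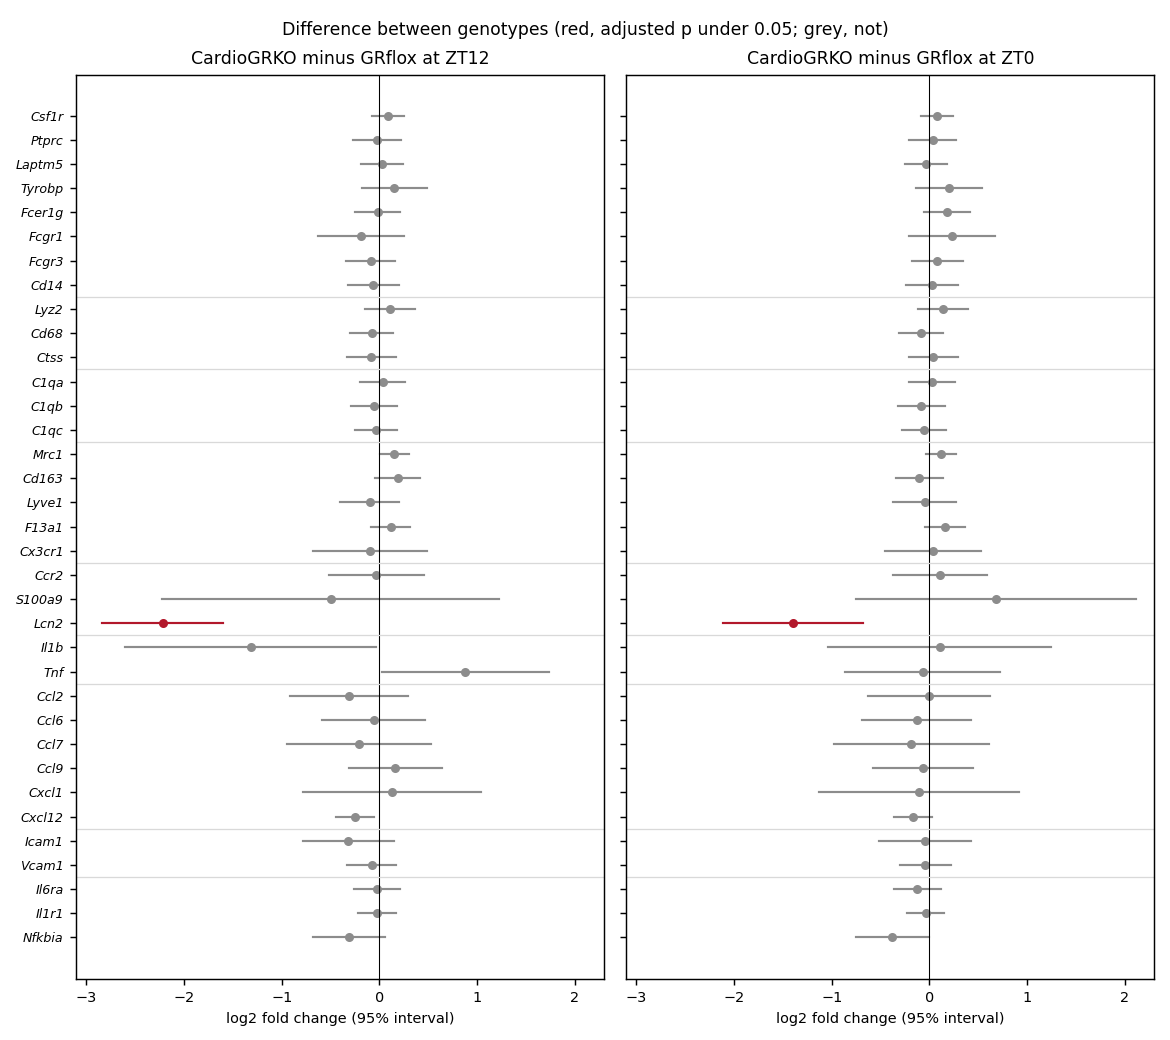
Log2 fold change of CardioGRKO over GRflox with its 95% interval for the 35 genes tested, at ZT12 (left) and ZT0 (right); lines separate the groups of genes. Lcn2 is the one gene in red at both times, and the intervals of the 19 macrophage genes at the top lie within a 2-fold change, while those of S100a9, Il1b and Tnf are wide.

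Cytokines, chemokines, adhesion molecules and receptors did not pass between genotypes either. At ZT12 the log2 fold change was -1.32 ± 0.62 for Il1b and 0.88 ± 0.41 for Tnf, both from a few reads per library (edgeR adjusted p = 0.143 and 0.14). The inhibitor of NF-kB encoded by Nfkbia averaged 35.6 ± 8.41 CPM in CardioGRKO and 44.2 ± 5.75 CPM in GRflox at ZT12, and 30.5 ± 7.85 CPM in CardioGRKO and 39.3 ± 11.7 CPM in GRflox at ZT0 (edgeR adjusted p = 0.228 and 0.178). Cxcl12 averaged 233.7 ± 34.2 CPM in CardioGRKO and 277.2 ± 24.0 CPM in GRflox at ZT12, a log2 fold change of -0.25 ± 0.09 (edgeR adjusted p = 0.0628). Cxcl12 was thus near the threshold: it was called lower by DESeq2 (adjusted p = 0.0411) and by edgeR without CardioGRKO replicate 3, CardioGRKO replicate 5 or GRflox replicate 5 at ZT12 (adjusted p = 0.0349, 0.0443 and 0.0432). Without GRflox replicate 5 at ZT12, Mrc1, which encodes the mannose receptor, was also called, as higher in CardioGRKO (0.21, edgeR adjusted p = 0.0371), against 0.15 ± 0.07 and an adjusted p of 0.15 with all libraries. The monocyte chemokine genes Ccl2 and Ccl7, neighbours on chromosome 11, had -0.31 ± 0.29 and -0.21 ± 0.36 at ZT12, and Icam1, a leukocyte adhesion molecule, had -0.32 ± 0.22. Log2 fold changes of the rest ran from -0.499 (S100a9) to 0.162 (Ccl9) at ZT12.

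Other genes of these pathways were read from lists that do not contain the 38. Of 36 further macrophage genes tested, 1 rose in CardioGRKO at ZT12, the folate receptor gene Folr2 (0.27 ± 0.09, edgeR adjusted p = 0.0374), and 0 passed at ZT0, where 0 also had an unadjusted p under 0.05. Of 48 genes of NF-kB and cytokine signalling, 5 rose and 5 fell in CardioGRKO at ZT12, and 1 rose and 2 fell at ZT0. Those called make up 20.8% of the list at ZT12, near the 21.1% of all genes, and 6.25% at ZT0, below the 14.7% of all genes. Zfp36, whose product destabilises cytokine mRNAs, was lower in CardioGRKO by -0.82 ± 0.11 at ZT12 and -0.48 ± 0.12 at ZT0 (edgeR adjusted p = 1.05e-05 and 0.00657). Nfkbib, an NF-kB inhibitor, was lower by -0.34 ± 0.06 at ZT12, Tnip1, which encodes a partner of the inhibitor A20, higher by 0.39 ± 0.08, and the cytokine gene Lif higher by 1.64 ± 0.35 at mean levels of 0.758 CPM in CardioGRKO and 0.226 CPM in GRflox. Of 18 chemokine and receptor genes tested, 2 rose and 1 fell in CardioGRKO at ZT12, and 2 rose and 2 fell at ZT0. Cx3cl1, the ligand of the receptor CX3CR1, averaged 17.5 CPM in CardioGRKO and 12.0 CPM in GRflox at ZT12 (0.56 ± 0.10, edgeR adjusted p = 0.000218). The 2 growth factors that bind CSF1R differed at ZT0: Csf1 averaged 96.9 CPM in CardioGRKO and 72.5 CPM in GRflox (0.44 ± 0.13, edgeR adjusted p = 0.0185), and Il34 2.01 CPM in CardioGRKO and 3.19 CPM in GRflox (-0.62 ± 0.15, edgeR adjusted p = 0.00582). Neither passed at ZT12, where Csf1 averaged 107.2 CPM in CardioGRKO and 93.49 CPM in GRflox, and Il34 4.061 CPM in CardioGRKO and 4.275 CPM in GRflox.

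The second question was whether the genes differed between lights off and lights on. In CardioGRKO, 4 of the 35 genes passed, against 9.17% of all genes and 8.71% of genes between the quartiles: Cd163 and Lyve1 were higher at ZT12, and Cx3cr1 and Ptprc lower. In GRflox, 8 of 35 passed, against 17.3% of all genes and 16.3% of genes between the quartiles: Cd68, Cd163, Lyve1, F13a1, Lcn2 and Vcam1 were higher at ZT12, and Cx3cr1 and Il1r1 lower. The counts are 11.4% of the 35 in CardioGRKO and 22.9% in GRflox. Over all genes, 4.42% were higher and 4.75% lower at ZT12 in CardioGRKO, and 8.13% higher and 9.17% lower in GRflox. The median log2 fold change of the 35 was 0.008 in CardioGRKO, against 0.002 for all genes, and 0.150 in GRflox, against 0.008 for all genes. The libraries at ZT12 and ZT0 did not overlap for 4 of the 35 genes in CardioGRKO (Cd163, Lyve1, F13a1 and Cx3cr1) and for 2 in GRflox (Cx3cr1 and Il1r1), against 7.11% of all genes tested in CardioGRKO and 12.5% in GRflox.

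Cx3cr1 encodes the receptor of the chemokine CX3CL1 on macrophages and monocytes, and lies on chr9:120048683-120068296, minus strand. In CardioGRKO it had 1.33, 2.503, 4.48, 1.34 and 3.70 CPM at ZT12, against 6.92, 4.64, 6.82, 9.70 and 8.23 CPM at ZT0. In GRflox it had 2.97, 3.68, 2.59, 2.08 and 2.35 CPM at ZT12, against 6.47, 7.86, 5.76, 7.92 and 7.35 CPM at ZT0. In both genotypes every library at ZT12 lay below every library at ZT0. The log2 fold change of ZT12 over ZT0 was -1.48 ± 0.26 in CardioGRKO (edgeR adjusted p = 0.000518) and -1.34 ± 0.26 in GRflox (edgeR adjusted p = 0.000614). An antisense transcript, Gm33858, overlaps the exons of Cx3cr1 by 78 bases. The part of monocytes in the Cx3cr1 result was not tested.

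Cd163 encodes the scavenger receptor that takes up haemoglobin bound to haptoglobin, and lies on chr6:124304636-124330529, plus strand. CardioGRKO libraries had 33.4, 26.5, 31.8, 33.9 and 34.7 CPM at ZT12, against 15.3, 19.6, 21.1, 16.9 and 17.3 CPM at ZT0. GRflox libraries had 26.7, 29.5, 28.8, 29.3 and 26.5 CPM at ZT12, against 14.8, 18.02, 27.0, 17.5 and 20.3 CPM at ZT0. The times did not overlap in CardioGRKO, and in GRflox replicate 3 at ZT0 reached the range of ZT12. The log2 fold change was 0.81 ± 0.12 in CardioGRKO (edgeR adjusted p = 4.34e-05) and 0.52 ± 0.11 in GRflox (edgeR adjusted p = 0.00228). Without that replicate the GRflox value was 0.67 (edgeR adjusted p = 2.22e-05).

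Lyve1 encodes a hyaluronan receptor of resident macrophages and of lymphatic endothelium. The CardioGRKO values were 21.9, 20.4, 30.7, 27.9 and 22.4 CPM at ZT12, against 17.6, 20.3, 17.9, 12.8 and 16.2 CPM at ZT0. The GRflox values were 24.5, 23.1, 32.4, 26.2 and 25.8 CPM at ZT12, against 15.1, 16.6, 25.7, 14.0 and 15.3 CPM at ZT0. In CardioGRKO the lowest library at ZT12 (20.35 CPM) lay just above the highest at ZT0 (20.29 CPM), and in GRflox replicate 3 at ZT0 lay within the range of ZT12. The log2 fold change was 0.55 ± 0.15 in CardioGRKO (edgeR adjusted p = 0.0246) and 0.60 ± 0.15 in GRflox (edgeR adjusted p = 0.0067). In CardioGRKO the call was lost without replicate 4 or 5 at ZT0 or replicate 3 or 4 at ZT12 (edgeR adjusted p = 0.0969, 0.0574, 0.0723 and 0.0675). Thinning all libraries to the depth of the shallowest also lost this call (edgeR adjusted p = 0.0559). Lymphatic endothelial markers, a list of 6 genes chosen after values had been seen, summed to 133.6 to 158.9 CPM at ZT12 and 136.7 to 172.4 CPM at ZT0 in CardioGRKO, and to 112.6 to 142.8 CPM at ZT12 and 146.8 to 182.8 CPM at ZT0 in GRflox. Prox1, a transcription factor gene of lymphatic endothelium that cardiomyocytes also express, was a large part of this sum. In CardioGRKO it averaged 86.37 CPM at ZT12 and 96.6 CPM at ZT0, against mean sums of 147.8 and 158.3 CPM. In GRflox it averaged 58.4 CPM at ZT12 and 95.78 CPM at ZT0, against mean sums of 126.3 and 165.6 CPM. Of the 5 tested, 0 passed in CardioGRKO and 1 fell in GRflox, Prox1 (-0.71 ± 0.12, edgeR adjusted p = 0.000135), while Ccl21a was at 0 in all libraries. The part of lymphatic cells in the Lyve1 result was not tested.

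F13a1 encodes the A chain of coagulation factor XIII, which resident macrophages make. In CardioGRKO it had 46.7, 38.6, 49.9, 42.2 and 37.8 CPM at ZT12, against 31.8, 35.3, 37.4, 36.6 and 32.3 CPM at ZT0. In GRflox it had 34.3, 34.2, 46.1, 43.2 and 41.5 CPM at ZT12, against 30.1, 30.0, 39.1, 29.6 and 27.5 CPM at ZT0. The times did not overlap in CardioGRKO and overlapped in GRflox. Between times, the log2 fold change was 0.30 ± 0.10 in CardioGRKO (edgeR adjusted p = 0.0541) and 0.35 ± 0.10 in GRflox (edgeR adjusted p = 0.0151). Its place near the threshold showed in both genotypes. The GRflox call was lost without replicate 3 at ZT12 (edgeR adjusted p = 0.0608) and with all libraries thinned to the depth of the shallowest (edgeR adjusted p = 0.0522). In CardioGRKO the gene was called higher by DESeq2 (adjusted p = 0.0336), by edgeR on the CardioGRKO libraries alone (adjusted p = 0.0309), and without replicate 2 or 5 at ZT12 (edgeR adjusted p = 0.0471 and 0.0436).

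**Figure D3:**
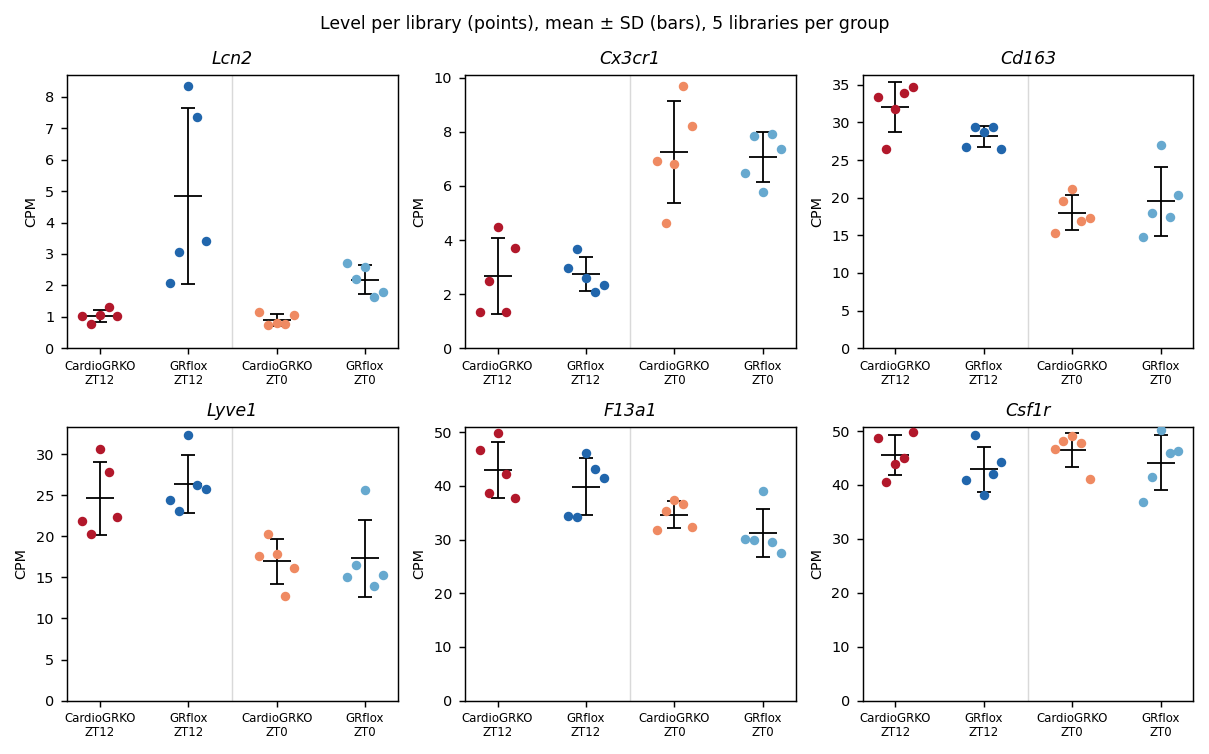
CPM of Lcn2, 4 genes linked to resident macrophages and Csf1r in each library (points), with the mean ± SD of 5 libraries per group (bars); columns are CardioGRKO and GRflox at ZT12, then CardioGRKO and GRflox at ZT0. Lcn2 is lower in both CardioGRKO groups, Cx3cr1 is lower and Cd163 higher at ZT12 in both genotypes, and Csf1r lies between 36.8 and 50.1 CPM throughout.

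Among the macrophage genes, 3 linked to resident cells thus passed in both genotypes, Cd163 and Lyve1 as higher and Cx3cr1 as lower at ZT12. Csf1r, Laptm5, Tyrobp, Fcer1g, Fcgr1, Fcgr3, Cd14, Lyz2, Ctss, Mrc1 and the 3 C1q genes passed between times in neither genotype. Csf1r had a log2 fold change of -0.04 ± 0.08 in both, Mrc1 0.00 ± 0.07 in CardioGRKO and -0.03 ± 0.07 in GRflox, and C1qc 0.24 ± 0.11 in CardioGRKO and 0.22 ± 0.11 in GRflox (edgeR adjusted p = 0.167 and 0.16). C1qc was called in GRflox without replicate 3 at ZT0 (0.33, edgeR adjusted p = 0.0222). Reads of Cd163, Lyve1 and Cx3cr1 were also set against those of Csf1r in the same library, as a description: the 3 genes were those already called, and Csf1r was chosen after it was seen not to pass. Per 100 reads of Csf1r, Cd163 had 65.5 to 75.2 reads at ZT12 and 33.0 to 43.1 at ZT0 in CardioGRKO, and 59.8 to 75.3 at ZT12 and 38.2 to 53.9 at ZT0 in GRflox. Lyve1 had 45.0 to 69.9 reads at ZT12 and 26.8 to 42.2 at ZT0 in CardioGRKO, and 46.8 to 84.8 at ZT12 and 30.5 to 51.2 at ZT0 in GRflox. Cx3cr1 had 2.76 to 10.3 reads at ZT12 and 9.67 to 20.4 at ZT0 in CardioGRKO, and 5.04 to 7.51 at ZT12 and 11.5 to 19.0 at ZT0 in GRflox. The ratio at ZT12 was 1.82-fold that at ZT0 for Cd163, 1.48-fold for Lyve1 and 0.344-fold for Cx3cr1 in CardioGRKO, and 1.51-fold, 1.59-fold and 0.394-fold in GRflox.

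**Figure D4:**
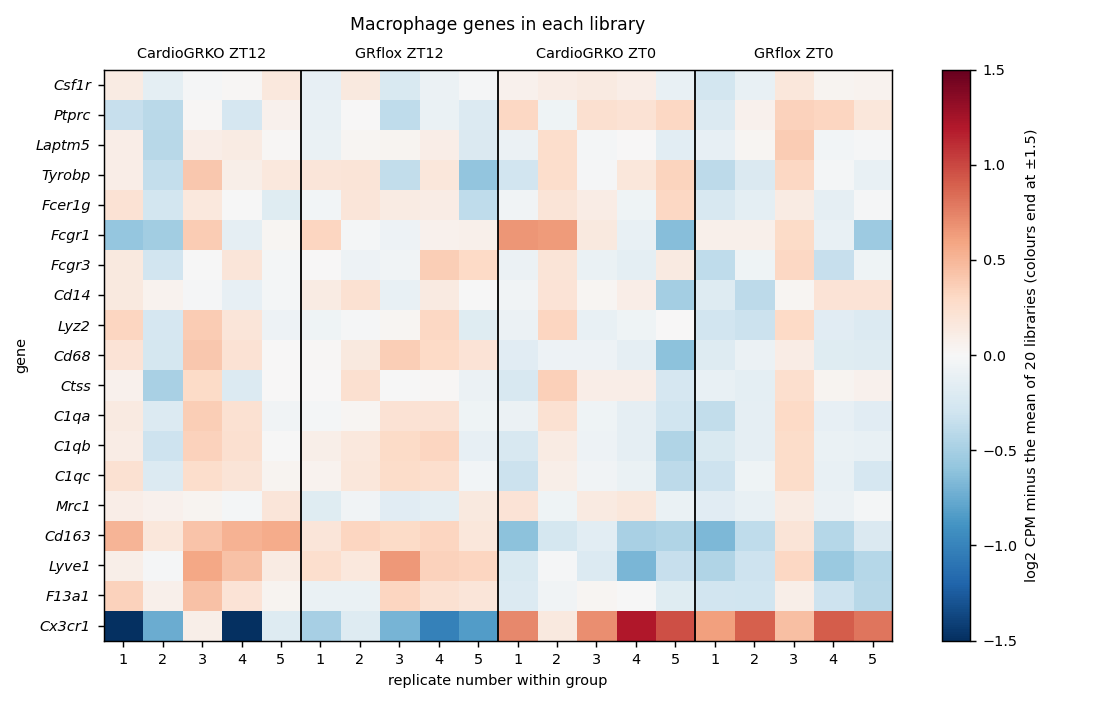
Deviation of log2 CPM from each gene's mean of 20 libraries for the 19 macrophage genes (rows) in each library (columns, by group and replicate number); red is above and blue below the mean, and colours end at ±1.5. Cx3cr1 is blue and Cd163 and Lyve1 red in most ZT12 libraries of both genotypes, and replicate 3 of GRflox at ZT0 is red in most rows.

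Ptprc encodes CD45, which all leukocytes carry. CardioGRKO libraries had 5.42, 5.23, 6.97, 5.78 and 7.21 CPM at ZT12, against 8.56, 6.63, 8.13, 8.03 and 8.58 CPM at ZT0. GRflox libraries had 6.39, 6.95, 5.30, 6.44 and 6.01 CPM at ZT12, against 6.01, 7.20, 8.80, 8.64 and 7.80 CPM at ZT0. It fell in CardioGRKO by 0.37 ± 0.12 on the log2 scale (edgeR adjusted p = 0.0492), and its value in GRflox was -0.31 ± 0.12 (edgeR adjusted p = 0.0666), so that the 2 genotypes lay on either side of the threshold with similar values. The CardioGRKO call was lost without replicates 1, 3, 4 or 5 at ZT0 or replicates 1, 2 or 4 at ZT12 (edgeR adjusted p = 0.0722, 0.0981, 0.0906, 0.0949, 0.114, 0.106 and 0.0904), and the GRflox value was called without replicate 1 at ZT0 (-0.39, edgeR adjusted p = 0.0209). A replicate block, no filter, only the groups compared and thinning also lost the CardioGRKO call (edgeR adjusted p = 0.0562, 0.0582, 0.0709 and 0.058).

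Cd68, a lysosomal glycoprotein gene of macrophages, had 18.8, 13.6, 21.7, 19.1 and 16.4 CPM at ZT12 and 14.49, 15.5, 15.5, 14.9 and 10.7 CPM at ZT0 in CardioGRKO. The GRflox values were 16.6, 18.2, 21.2, 20.2 and 18.8 CPM at ZT12 and 14.3, 15.4, 17.7, 14.4 and 14.3 CPM at ZT0. The log2 fold change was 0.32 ± 0.11 in both genotypes, on the called side in GRflox (edgeR adjusted p = 0.044) and not in CardioGRKO (edgeR adjusted p = 0.0656). The GRflox call was lost without any of 8 libraries, replicates 1, 2, 4 and 5 at ZT0 and 2 to 5 at ZT12 (edgeR adjusted p from 0.0547 to 0.128), and in CardioGRKO the gene was called by DESeq2 (adjusted p = 0.0426) and by edgeR without replicate 2 at ZT12 (adjusted p = 0.0139). Thinning to the shallowest library and leaving out the filter on low counts also lost the GRflox call (edgeR adjusted p = 0.0617 and 0.0544).

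Lcn2 rose at ZT12 in GRflox by 1.16 ± 0.28 on the log2 scale (edgeR adjusted p = 0.00466), with overlapping libraries. In CardioGRKO its value was 0.33 ± 0.37 (edgeR adjusted p = 0.67). The difference between the 2 time effects, the interaction, was -0.82 ± 0.47 (unadjusted p = 0.0921, edgeR adjusted p = 0.885), so that the time effect was not shown to differ between genotypes. With all libraries thinned to the depth of the shallowest, the GRflox call was lost (edgeR adjusted p = 0.0597). Of the 3 adipocyte markers tested in the same comparison, 1 rose in GRflox at ZT12, Cidec (1.64 ± 0.50, edgeR adjusted p = 0.0243). Its mean levels were low, at 0.645 CPM at ZT12 and 0.195 CPM at ZT0. The summed level of the list overlapped between times in GRflox, at 0.653 to 7.85 CPM at ZT12 and 1.33 to 3.63 CPM at ZT0. The part of adipocytes in the Lcn2 difference was not tested.

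Vcam1 encodes an endothelial adhesion molecule for leukocytes. The CardioGRKO values were 21.4, 20.5, 18.2, 28.0 and 23.1 CPM at ZT12, against 19.3, 19.6, 16.9, 16.2 and 15.8 CPM at ZT0. In GRflox it had 24.1, 24.3, 20.4, 28.2 and 21.1 CPM at ZT12, against 15.8, 14.6, 23.9, 16.1 and 19.1 CPM at ZT0. It rose at ZT12 in GRflox by 0.39 ± 0.12 (edgeR adjusted p = 0.0333), and its value in CardioGRKO was 0.35 ± 0.13 (edgeR adjusted p = 0.0898). The GRflox call was lost without replicates 1, 2 or 4 of either time (edgeR adjusted p from 0.0597 to 0.104), and the CardioGRKO value was called without replicate 3 at ZT12 (edgeR adjusted p = 0.0466).

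Il1r1 encodes the signalling receptor of interleukin 1. In CardioGRKO it had 12.6, 14.0, 11.8, 10.5 and 15.8 CPM at ZT12, against 15.6, 16.3, 14.4, 16.2 and 14.6 CPM at ZT0. GRflox libraries had 13.5, 14.2, 13.0, 12.5 and 12.0 CPM at ZT12, against 15.4, 14.7, 14.8, 15.7 and 18.6 CPM at ZT0, without overlap. The log2 fold change was -0.27 ± 0.09 in CardioGRKO (edgeR adjusted p = 0.0714) and -0.28 ± 0.09 in GRflox (edgeR adjusted p = 0.0358). The GRflox call was lost without replicate 4 or 5 at ZT0 or replicates 3, 4 or 5 at ZT12 (edgeR adjusted p from 0.0539 to 0.131), and the CardioGRKO value was called by DESeq2 (-0.28, adjusted p = 0.0467) and by edgeR without replicate 5 at ZT12 (adjusted p = 0.0145). Thinning all libraries to the depth of the shallowest also lost the GRflox call (edgeR adjusted p = 0.122).

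**Figure D5:**
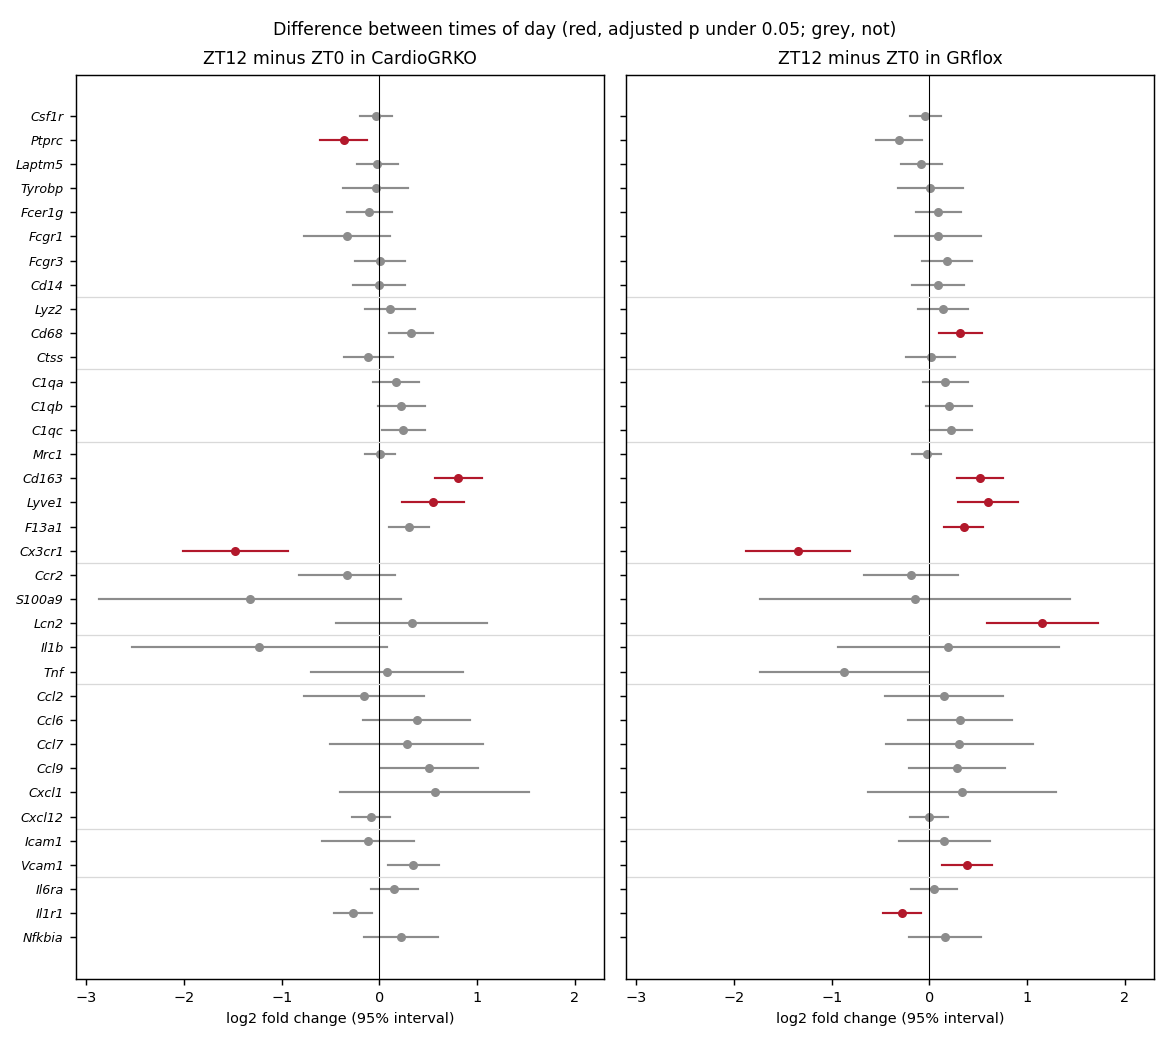
Log2 fold change of ZT12 over ZT0 with its 95% interval for the 35 genes tested, in CardioGRKO (left) and GRflox (right); red marks an adjusted p under 0.05. Cx3cr1 lies near -1.4 and Cd163 and Lyve1 above 0.5 in both panels, while Csf1r and Laptm5 at the top lie near 0.

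The remaining inflammatory genes did not pass between times in either genotype. Ccr2 averaged 1.80 ± 0.62 CPM at ZT12 and 2.23 ± 0.50 CPM at ZT0 in CardioGRKO, and 1.77 ± 0.48 CPM at ZT12 and 2.08 ± 0.40 CPM at ZT0 in GRflox. Cxcl12 had a log2 fold change of -0.09 ± 0.09 in CardioGRKO and -0.005 ± 0.09 in GRflox. Ccl6 and Ccl9, chemokine genes next to each other on chromosome 11 and made by mouse myeloid cells, had 0.38 ± 0.27 and 0.51 ± 0.24 in CardioGRKO, and 0.31 ± 0.26 and 0.28 ± 0.24 in GRflox. Il1b had -1.23 ± 0.63 in CardioGRKO and 0.19 ± 0.55 in GRflox, and Tnf 0.07 ± 0.38 in CardioGRKO and -0.87 ± 0.42 in GRflox, and the intervals of Il1b in both genotypes and of Tnf in GRflox reach beyond 2-fold. Il6ra, the receptor of interleukin 6, had 0.15 ± 0.12 in CardioGRKO and 0.05 ± 0.11 in GRflox. In the test of whether the time effect differed between genotypes, 0 of the 35 genes passed, against 0.186% of all genes (0.0643% higher and 0.121% lower), and 0 had an unadjusted p under 0.05; DESeq2 also called 0. For the 19 macrophage genes the interaction ran from -0.423 (Fcgr1) to 0.29 (Cd163), and 18 of the 19 intervals lay within a 2-fold difference.

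Further genes of these pathways, from the same lists, were read between times. Of the 36 further macrophage genes tested, 2 rose and 1 fell at ZT12 in CardioGRKO: Folr2 (0.35 ± 0.09) and Cbr2 (0.57 ± 0.16), which resident macrophages of mouse tissues express, and Irf8, a transcription factor of myeloid cells (-0.41 ± 0.12; edgeR adjusted p = 0.0196, 0.0281 and 0.0316). In GRflox 0 rose and 1 fell, Mpeg1, the gene of a pore-forming protein of macrophages (-0.44 ± 0.14, edgeR adjusted p = 0.0294). These are 8.33% of the list in CardioGRKO, against 9.17% of all genes, and 2.78% in GRflox, against 17.3%. Of the 48 genes of NF-kB and cytokine signalling, 4 rose and 1 fell at ZT12 in CardioGRKO, and 5 rose and 8 fell in GRflox, which is 10.4% of the list in CardioGRKO and 27.1% in GRflox. Il33, an alarmin cytokine of stromal and endothelial cells, averaged 5.02 CPM at ZT12 and 2.35 CPM at ZT0 in CardioGRKO, and 5.42 CPM at ZT12 and 2.08 CPM at ZT0 in GRflox (1.09 ± 0.18 and 1.37 ± 0.18; edgeR adjusted p = 0.000238 and 4.72e-06). The NF-kB subunit genes Rel and Nfkb1 were lower at ZT12 in GRflox by -0.69 ± 0.12 and -0.23 ± 0.05 (edgeR adjusted p = 0.000193 and 0.00178). Neither was called in CardioGRKO, where Rel averaged 9.47 CPM at ZT12 and 12.04 CPM at ZT0, and Nfkb1 56.2 and 62.1 CPM. Of the 18 chemokine and receptor genes, 2 rose and 2 fell at ZT12 in CardioGRKO, and 4 rose and 5 fell in GRflox, which is 4 of 18 in CardioGRKO and 9 of 18 in GRflox. The receptor gene Cxcr4 was lower at ZT12 in CardioGRKO by -0.57 ± 0.12 and in GRflox by -0.61 ± 0.12 (edgeR adjusted p = 0.00338 and 0.000857). Il34 was higher at ZT12 in CardioGRKO by 0.97 ± 0.15 (edgeR adjusted p = 7.77e-05) and in GRflox by 0.41 ± 0.14 (edgeR adjusted p = 0.0413). Cx3cl1 was lower at ZT12 in GRflox by -0.48 ± 0.10 (edgeR adjusted p = 0.00143). It was not called in CardioGRKO, where it averaged 17.5 CPM at ZT12 and 19.9 CPM at ZT0. In the test of whether the time effect differed between genotypes, 0 of these 48 and 0 of these 18 genes passed.

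Markers of the other cells of the wall were also read, and their part in the results above was not tested. Of all genes, 21.1% passed between genotypes at ZT12 and 14.7% at ZT0, and 9.17% between times in CardioGRKO and 17.3% in GRflox. The shares between genotypes at ZT12 and ZT0 were 33.3% and 50% of endothelial and 72.7% and 54.5% of cardiomyocyte markers. They were 8.33% and 0% of fibroblast markers, and 30% and 40% of pericyte and smooth muscle markers. Between times, 41.7% of endothelial markers passed in CardioGRKO and 50% in GRflox. Of 12 endothelial markers, 4 were lower in CardioGRKO at ZT12 and 6 at ZT0, and at ZT12 5 were lower in CardioGRKO and 6 in GRflox than at ZT0. Their sum was 1318 to 1529 CPM in CardioGRKO and 1510 to 1679 CPM in GRflox at ZT12, and 1554 to 1713 CPM in CardioGRKO and 1776 to 1931 CPM in GRflox at ZT0. Of 11 cardiomyocyte markers, 8 were lower in CardioGRKO at ZT12 and 6 at ZT0, and their sum was 109400 to 123900 CPM in CardioGRKO and 130400 to 135300 CPM in GRflox at ZT12. Of 12 fibroblast markers, 1 was higher in CardioGRKO at ZT12 and 0 passed at ZT0, and 2 were lower at ZT12 in GRflox and 0 passed in CardioGRKO. Of 10 pericyte and smooth muscle markers, 1 rose and 2 fell in CardioGRKO at ZT12, 1 rose and 3 fell at ZT0, and 2 rose at ZT12 in CardioGRKO and 0 passed in GRflox. T and NK cell markers were scarce, at a summed 2.26 to 5.60 CPM over all libraries, with 0 of 2 tested genes called between genotypes. Between times, 0 were called in CardioGRKO and 1 was lower at ZT12 in GRflox, Cd2 (-1.57 ± 0.42, edgeR adjusted p = 0.0107). Cd2 averaged 0.148 CPM at ZT12 and 0.434 CPM at ZT0 in GRflox. Neutrophil markers had 0 called between times in CardioGRKO and 1 lower at ZT12 in GRflox, Mmp9 (-0.94 ± 0.31, edgeR adjusted p = 0.0406), whose product other cells also make. Mmp9 averaged 0.610 CPM at ZT12 and 1.16 CPM at ZT0 in GRflox.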

How the data were processed

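The deposited files hold whole-number counts of reads per gene for each library, made by the authors and not normalized. The submitters' processing notes name STAR (2.5.1), featureCounts, Subread (1.5.1), the build mm10 and DESeq2 (1.38.3). Per the labels' protocols, RNA of the perfused ventricle was made into poly(A)-enriched TruSeq libraries and sequenced as 75-base paired reads. Strand setting, treatment of reads that match several genes and annotation release are not given in the sources at hand, so overlapping or duplicated genes may share or lose reads.

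All 24918 lines of a table name a gene. They were summed by Entrez identifier to 24059 genes, 4768 of them without a read. The depth was 5854462 to 37648421 counts per library, and the next to the shallowest held 11143527. Pairs of replicates within a group gave a chi-square per gene of 4.22 to 20.96 (genes with at least 20 counts), above sampling noise, so none was counted as a repeat deposit.

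The deposited counts were tested with edgeR 4.0.16 (R 4.3.3, quasi-likelihood F-test), with TMM scaling and filterByExpr (minimum count 10, minimum total 15), which kept 14007 genes. A model of the 4 group means was fitted to all 20 libraries, with Benjamini-Hochberg adjustment over all genes within a contrast and a threshold of 0.05. The common biological coefficient of variation was 8.78%. Standard errors are the size of the log2 fold change over the square root of F. CPM values are scaled by TMM. Levels per kb use the exon union of GENCODE M21, and gene positions are those of RefSeq on GRCm38.p6. Ratios to Csf1r used a pseudocount of 0.5 reads. Exact permutation tests were run on them, also with each library left out. Their p-values are not given, because the genes and Csf1r were chosen after values had been seen. The code was tested on simulated counts.

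Alternatives were DESeq2 1.42.0, RLE scaling, no filter, the replicate number as a block, only the groups compared, thinning to 5854462 counts, and each library left out in turn. The 38 genes, their grouping and 15 companion lists were chosen with earlier results of these data known. The lymphatic and adipocyte lists and the ratios to Csf1r were chosen after values had been seen. Values in every library are given for the genes called in any contrast and for the scarce cytokine and neutrophil genes. Of a companion list, the counts are given, and at most 4 called genes are named per contrast, which are not always those of smallest p. Sequences are from RefSeq, where 30 of the 38 genes have a promoter. Python 3.11.15 with matplotlib 3.10.9 drew the figures.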

Additional observations from a re-analysis of the deposited data

Results flagged for a closer look

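In 152 groups of 5 libraries (38 genes in 4 groups), 21 had a library that lay far from the other 4 by Dixon's test (critical value 0.71), which chance alone gives in about 1 group of 20. Of the 21, 7 came from replicate 3 of GRflox at ZT0, the highest of its group for Laptm5 (34.0 CPM), Lyz2 (123.3 CPM), C1qb (69.91 CPM), Lyve1 (25.65 CPM), F13a1 (39.09 CPM), Icam1 (20.73 CPM) and Il6 (0.0349 CPM, 1 read). This library was the highest of its group in 25 of the 35 genes tested, and its summed level of the 19 macrophage genes was 644.9 CPM, against 446.0 to 496.7 CPM in the other 4. Without it, 7 genes were called higher and 2 lower at ZT12 in GRflox, where 6 and 2 were called with it.

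In CardioGRKO at ZT12, replicate 2 was the lowest for Laptm5 (19.57 CPM) and the highest for Il6 (0.04552 CPM, 1 read), replicate 3 the highest for S100a8 (0.6897 CPM) and S100a9 (0.4215 CPM), and replicate 4 the highest for Cxcl1 (2.907 CPM, the next at 0.9089 CPM). In GRflox at ZT12, replicate 2 was the highest for Ctss (19.96 CPM) and replicate 4 for S100a8 (0.8453 CPM). In CardioGRKO at ZT0, replicate 2 was the lowest for Ptprc (6.632 CPM) and the highest for Lyz2 (124.5 CPM) and Cxcl2 (0.2097 CPM), and replicate 5 the lowest for Cd68 (10.71 CPM), Ccl2 (1.239 CPM) and Ccl7 (0.3539 CPM). In GRflox at ZT0, replicate 5 was the highest for Il1r1 (18.62 CPM).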

How the results depend on the processing

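Lcn2 between genotypes at both times, and Cd163 and Cx3cr1 between times in both genotypes, kept direction and call under all 16 alternatives each. Their largest adjusted p-values were 0.0288 for Lcn2 at ZT0, 0.000424 for Lcn2 at ZT12, 0.00914 for Cd163 in GRflox and 0.00631 for Cx3cr1 in CardioGRKO. Lyve1 in GRflox also kept its call, and no call changed sign. With 1 library left out, 0 to 1 genes were called higher and 1 to 2 lower in CardioGRKO at ZT12, and 0 to 0 higher and 1 to 1 lower at ZT0. For ZT12 against ZT0, 1 to 4 were called higher and 1 to 3 lower in CardioGRKO, and 4 to 7 higher and 1 to 3 lower in GRflox, while the interaction gave 0 each time. DESeq2 called 2 genes lower in CardioGRKO at ZT12 and 4 higher and 3 lower at ZT12 against ZT0 in CardioGRKO, as Cd68, F13a1 and Il1r1 gained the call. Thinning to the shallowest library left 3 higher and 1 lower at ZT12 in GRflox, and 1 higher and 1 lower in CardioGRKO. In CardioGRKO, 1 gene was called lower at ZT12 without the filter and in a fit of only the groups compared. The cause of these shifts was not tested, apart from the fewer reads of thinning.

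Whether replicate numbers pair the libraries was not settled. Deviations of same-numbered libraries correlated at -0.272 to 0.234 over 30 pairs (median 0.0295), with 8 over 0.1. Differently numbered libraries were not correlated as a reference. Between the genotypes at ZT12 the correlations ran from 0.01 to 0.234. A block of the replicate number called more of all genes in every comparison, such as 1516 higher and 1595 lower in CardioGRKO at ZT12, against 1453 and 1499. With the replicate number as a block, 4 genes were called higher and 1 lower at ZT12 in CardioGRKO, as Cd68 and F13a1 gained and Ptprc lost the call, and Vcam1 lost its call in GRflox (adjusted p = 0.0517).

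Il6 had 11 reads in all, and the 95% intervals of S100a9 and Il1b reach beyond 2-fold in every comparison.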

Other observations

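Of 17 other complement genes tested, Masp1, the gene of a protease of the lectin pathway, was higher in CardioGRKO at ZT12 (0.73 ± 0.09, edgeR adjusted p = 9.66e-07) and at ZT0 (0.70 ± 0.09, edgeR adjusted p = 4.23e-06). Cfd, which is also in the adipocyte list, was the one complement gene lower in CardioGRKO at ZT12, and 0 were lower at ZT0. Those called make up 11.8% of the list at ZT12, against 21.1% of all genes, and 5.88% at ZT0, against 14.7%. At ZT12 against ZT0, 0 of the 17 passed in CardioGRKO, where 9.17% of all genes did. In GRflox, where 17.3% of all genes passed, C4b rose (0.76 ± 0.26, edgeR adjusted p = 0.0442). Of 4 B cell markers tested, the kinase gene Blk was higher in CardioGRKO, at 12.1 CPM in CardioGRKO and 2.46 CPM in GRflox at ZT12 and 11.1 CPM in CardioGRKO and 2.24 CPM in GRflox at ZT0 (2.35 ± 0.15 and 2.26 ± 0.15; edgeR adjusted p = 1.01e-10 and 4.13e-10), while the other 3 did not pass between genotypes. Cd79a, a B cell receptor component, was lower at ZT12 in CardioGRKO (-1.20 ± 0.37, edgeR adjusted p = 0.0422) and in GRflox (-1.11 ± 0.33, edgeR adjusted p = 0.0224). It was scarce, with means of 0.291 CPM at ZT12 and 0.806 CPM at ZT0 in CardioGRKO, and 0.413 and 0.898 CPM in GRflox. Of 5 mast cell markers tested, 0 passed between genotypes and Kit was lower at ZT12 in CardioGRKO (-0.54 ± 0.14, edgeR adjusted p = 0.0156) and in GRflox (-0.50 ± 0.14, edgeR adjusted p = 0.0136). Of 4 erythroid and platelet markers tested, 0 passed between genotypes or between times in CardioGRKO, and Ppbp was lower at ZT12 in GRflox (-1.37 ± 0.47, edgeR adjusted p = 0.0464). Its mean in GRflox was 0.749 CPM at ZT12 and 1.79 CPM at ZT0.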
